A study of Mus musculus with 16 samples.

Results

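The genes that write and erase DNA methylation were followed in haematopoietic stem cells (HSCs), the source of all blood lineages in the marrow, of mice after long-term treatment with palbociclib, rapamycin or both. The members are 8 genes chosen by name: the maintenance methyltransferase Dnmt1 and its partner Uhrf1, the de novo methyltransferases Dnmt3a and Dnmt3b, the demethylases Tet1, Tet2 and Tet3, and the chromatin regulator Asxl1. They are 8 of 50686 gene IDs in each deposited table, and all 8 passed the filter on low counts that left 15308 genes for testing. C57BL/6J mice were injected intraperitoneally every 48 h for 85 days, and 10000 HSCs in G0 or G1 per library were sorted from marrow depleted of lineage-positive cells, by the surface proteins CD150, CD48, CD117 and Sca-1. The palbociclib group received 30.4 mg/kg, the rapamycin group 6.4 mg/kg, the group given both drugs received 30.4 mg/kg palbociclib with 6.4 mg/kg rapamycin, and the vehicle group received the carrier that all groups shared, 20% DMSO and 40% PEG 400 in PBS. Each group had 4 libraries, 16 in all. Palbociclib inhibits the kinases CDK4 and CDK6, which release E2F factors to start S phase, and rapamycin inhibits mTOR, a kinase that couples growth to nutrients. Whether the libraries stem from different animals is not stated in the labels. The p-values therefore reflect only how far these libraries spread, in part perhaps for technical reasons.

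Methyl groups on the cytosines of CpG dinucleotides are copied at each replication: UHRF1 recognises the hemimethylated CpG left behind the fork and recruits DNMT1, which restores the mark on the new strand. DNMT3A and DNMT3B place new marks, while the TET enzymes oxidise methylcytosine so that it can be lost by dilution or repair. In blood, DNMT3A, TET2 and ASXL1 are the genes most often mutated in human clonal haematopoiesis, and loss of Dnmt3a or Tet2 in mice enlarges the stem cell pool. ASXL1 does not modify DNA itself. It is a cofactor of the histone deubiquitinase BAP1 and works with Polycomb complexes.

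Uhrf1 and Dnmt1 gave the highest levels of the 8 genes, and 1 promoter window of each held letters of an E2F site. These 2 windows are printed here for reference beside the S-phase values given further on. The RefSeq promoter table of GRCm38.p6 holds 13 windows for the 8 members, 2 of them for Uhrf1 and 3 for Dnmt1. Each runs from 250 bases before to 50 bases after a start listed in that table, and a gene can have several starts. The letters TTTCCCGC, TTTCGCGC, TTTGCCGC and TTTGGCGC were searched on both strands, and matches are in capitals below. The printed Uhrf1 window is chr17:56304063-56304362 on the plus strand. The printed Dnmt1 window is chr9:20952574-20952873 on the minus strand, and each is written 5′ to 3′ along its gene.
Uhrf1: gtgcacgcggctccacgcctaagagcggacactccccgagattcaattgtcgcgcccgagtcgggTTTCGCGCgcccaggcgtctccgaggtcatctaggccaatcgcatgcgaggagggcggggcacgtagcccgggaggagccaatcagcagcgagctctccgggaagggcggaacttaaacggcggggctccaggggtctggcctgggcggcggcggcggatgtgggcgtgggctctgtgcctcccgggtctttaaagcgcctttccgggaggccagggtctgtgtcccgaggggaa
Dnmt1: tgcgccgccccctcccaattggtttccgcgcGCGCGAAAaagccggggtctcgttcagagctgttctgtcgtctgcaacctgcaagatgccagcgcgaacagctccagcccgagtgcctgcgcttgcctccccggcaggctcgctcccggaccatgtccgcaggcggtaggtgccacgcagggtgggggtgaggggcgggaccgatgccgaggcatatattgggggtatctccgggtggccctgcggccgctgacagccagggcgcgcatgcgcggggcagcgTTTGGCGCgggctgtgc
The printed Uhrf1 window held 1 match, starting at position -185 from the start listed for that window. The printed Dnmt1 window held 2 matches, at positions -219 and 33 from its own listed start. The upstream match reads on the opposite strand. Both printed windows lie inside the gene spans given further on, not at their 5′ ends. The other 11 windows held none. Among these is the Uhrf1 window at the 5′ end of the gene span, chr17:56303087-56303386. Also among them are the Dnmt1 windows chr9:20952930-20953229 and chr9:20959839-20960138, the latter at the 5′ end of its gene span. Of all 32851 promoters in the table, 2.26% hold these letters. Both printed windows contain 33 CpG dinucleotides, against a median of 7 over all promoters. The Tet2 window held 57 CpG and the richest Dnmt3a window 47, more than 99.8% and 98.6% of all promoters. A match describes the sequence and says nothing of binding, and the other windows may be bound through other letters.

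Libraries had 10133860 to 15328830 counts each, with 32 to 3149 counts for a member in a library. All 12 HSC markers of a fixed list, Procr, Slamf1, Hlf and Mecom among them, were detected in every library. Late neutrophil genes, which the lineage depletion should remove with their cells, made up 1.13% to 8.08% of counts in palbociclib, 0.733% to 5.27% in rapamycin, 1.00% to 4.81% in both-drug and 1.11% to 5.21% in vehicle libraries. B cell markers made up 0.0348% to 1.06% in palbociclib, 0.010% to 0.154% in rapamycin, 0.00566% to 0.732% in both-drug and 0.165% to 3.19% in vehicle libraries, with Ms4a1 and Pax5 at 0 counts in some libraries. Vehicle 3, rapamycin 3 and vehicle 4 correlated least with the other libraries, at a median r of 0.866, 0.871 and 0.880. In bulk RNA, fewer cells of a type and less RNA per cell cannot be told apart.

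Levels between genes can be compared only per transcript length. In the deposited TPM, which divides by the length of the transcripts the authors' software assigned, Uhrf1 was highest with a median of 61.4 TPM over 16 libraries, followed by Dnmt1 at 48.2, Dnmt3a at 30.1 and Dnmt3b at 16.6 TPM. Tet3 followed at 8.97, Tet2 at 7.92, Asxl1 at 6.19 and Tet1 at 4.76 TPM. Uhrf1 was above Dnmt1 in 13 of 16 libraries, Dnmt1 above Dnmt3a in 14, Dnmt3a above Dnmt3b in 12 and Dnmt3b above Tet3 in 15. In TPM the last 4 genes were not separated beyond their spread: Tet3 was above Tet2 in 9 of 16 libraries, Tet2 above Asxl1 in 10 and Asxl1 above Tet1 in 11. Per kilobase of the longest coding transcript the order was another, and more separated: Uhrf1, Dnmt1, Dnmt3b, Dnmt3a, Asxl1, Tet3, Tet2 and Tet1. On that scale Asxl1 was above Tet3 in 14 of 16 libraries, Tet3 above Tet2 in 16 and Tet2 above Tet1 in 16. All other values below are CPM (counts scaled to a common library total) with TMM scaling, a factor per library that evens out differences in RNA composition, and are compared only within a gene.

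**Figure D1:**
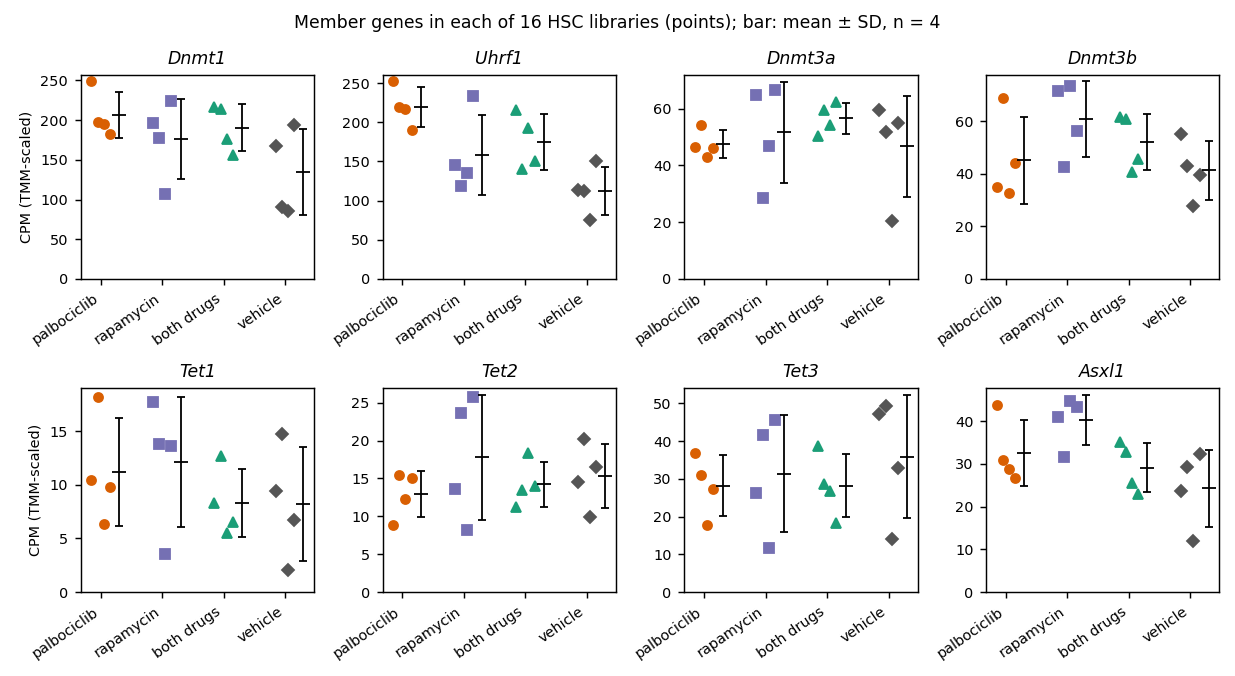
Each panel shows a member gene in TMM-scaled CPM (vertical axis, from 0) for the 4 libraries of palbociclib, rapamycin, both drugs and vehicle, with the mean ± SD beside the points. Uhrf1 was at 190 to 252 CPM with palbociclib, above all 4 vehicle libraries at 75.1 to 150 CPM, while every other member overlapped between its drug groups and vehicle.

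No member passed the edgeR quasi-likelihood test over all genes in any of 8 comparisons. Against vehicle, 0 of 8 members were called with palbociclib, rapamycin or both drugs at an adjusted p of 0.05, where the tool called 0.0%, 0.00653% and 0.0% of all genes tested. At an unadjusted p of 0.05 the counts were 2 members with palbociclib (Uhrf1 and Dnmt1), against 9.51% of all genes, 1 with rapamycin (Asxl1), against 7.65%, and 1 with both drugs (Uhrf1), against 10.5%. DESeq2 called Uhrf1 with palbociclib against vehicle at an adjusted p of 0.0239, where it called 0.75% of the genes to which it gave an adjusted p, and limma-voom called no member. Fold changes were positive for 6 of 8 members with palbociclib, 7 with rapamycin and 6 with both drugs, with medians of 0.28, 0.44 and 0.27 on the log2 scale beside -0.03, -0.01 and -0.02 over all genes. These 3 comparisons share the vehicle libraries, and vehicle 3 was the lowest vehicle library for all 8 members. Without vehicle 3 the fold changes were positive for 4 of 8 members with palbociclib, 6 with rapamycin and 5 with both drugs, with medians of 0.06, 0.23 and 0.03 on the log2 scale.

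Uhrf1 (ENSMUSG00000001228, chr17:56303321-56323486, plus strand) had the clearest difference of the members. It was at 252, 219, 217 and 190 CPM in palbociclib libraries, 146, 118, 135 and 233 CPM in rapamycin libraries, 216, 140, 192 and 151 CPM with both drugs, and 114, 112, 75.1 and 150 CPM in vehicle libraries. The lowest palbociclib library was above the highest vehicle library, a separation that 5.04% of all genes showed in either direction. The fitted difference between palbociclib and vehicle was 0.96 ± 0.23 (SE) on the log2 scale, a fold of 1.95, with a 95% interval of 0.47 to 1.46 and an edgeR adjusted p of 0.229. Averaged over both rapamycin levels, palbociclib gave 0.55 ± 0.16 with an edgeR adjusted p of 0.147, in a contrast where edgeR called 0.274% of all genes and 13.8% had an unadjusted p under 0.05. DESeq2 called Uhrf1 in that contrast at an adjusted p of 0.0464, together with 3.87% of the genes it gave a value.

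With both drugs, Uhrf1 averaged 175 ± 35.4 CPM against 113 ± 30.7 CPM in vehicle libraries (SD, n = 4 each), a log2 difference of 0.63 ± 0.23 (edgeR adjusted p = 0.339), and the groups overlapped. With rapamycin it averaged 158 ± 51.5 CPM, a difference of 0.49 ± 0.23 from vehicle (edgeR adjusted p = 0.656). Rapamycin 4, at 233 CPM, stood above the other rapamycin libraries, and without it the difference was 0.24. Without vehicle 3 the palbociclib difference was 0.82 (edgeR adjusted p = 0.221), and without vehicle 3, vehicle 4 and rapamycin 3 it was 0.97 (edgeR adjusted p = 0.211). Of 12 HSC markers 11 had negative fold changes with palbociclib against vehicle, with a median of -0.43 on the log2 scale, 2 with an unadjusted p under 0.05 and 0 called by edgeR. Of 10 late neutrophil markers 10 were positive, with a median of 1.00, and 0 were called. With rapamycin 7 of 12 HSC and 7 of 10 neutrophil markers were positive (medians 0.19 and 0.20), and with both drugs 4 of 12 and 6 of 10 (medians -0.08 and 0.44). With the late neutrophil and B cell shares as covariates the Uhrf1 palbociclib difference was 0.95, and the part of the HSC markers was not tested.

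Dnmt1 (ENSMUSG00000004099, chr9:20907209-20959888, minus strand) was at 249, 198, 195 and 183 CPM in palbociclib libraries, 197, 177, 107 and 224 CPM in rapamycin libraries, 216, 214, 176 and 156 CPM with both drugs, and 168, 91.1, 86.1 and 194 CPM in vehicle libraries. Vehicle 1 and 4 were high and vehicle 2 and 3 low, and vehicle 4 reached into the range of the palbociclib libraries. The palbociclib difference from vehicle was 0.61 ± 0.26 on the log2 scale (95% interval 0.05 to 1.17, edgeR adjusted p = 0.488). It was 0.47 without vehicle 2, 0.45 without vehicle 3 and 0.51 without palbociclib 1, each then with an unadjusted p above 0.05. Rapamycin gave 0.39 ± 0.26 and both drugs 0.50 ± 0.26, neither past an unadjusted p of 0.05. Without vehicle 3 these were 0.22 and 0.34, and without vehicle 4 they were 0.62 and 0.73.

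The de novo enzymes showed smaller differences with palbociclib. Dnmt3a (ENSMUSG00000020661, chr12:3806007-3914443, plus strand), whose loss in mice favours stem cell renewal over differentiation, was at 46.4, 54.4, 42.9 and 46.3 CPM in palbociclib libraries, 64.7, 28.4, 47.0 and 66.7 CPM in rapamycin libraries, 50.3, 59.4, 54.3 and 62.5 CPM with both drugs, and 59.6, 51.8, 20.4 and 55.1 CPM in vehicle libraries. Apart from vehicle 3, the vehicle libraries lay within the range of the treated groups. Log2 differences from vehicle were 0.03 with palbociclib (95% interval -0.60 to 0.65), 0.15 with rapamycin (-0.48 to 0.77) and 0.28 with both drugs (-0.35 to 0.90). Without vehicle 3 they were -0.22, -0.10 and 0.03, and without palbociclib 2 the palbociclib value was -0.04.

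Dnmt3b (ENSMUSG00000027478, chr2:153649450-153687730, plus strand), the second de novo enzyme, was at 35.1, 68.8, 32.7 and 44.0 CPM in palbociclib libraries, 71.7, 42.7, 73.3 and 56.2 CPM in rapamycin libraries, 61.5, 60.7, 40.5 and 45.7 CPM with both drugs, and 55.1, 43.0, 27.7 and 39.5 CPM in vehicle libraries. Rapamycin libraries were the highest on average, at 61.0 ± 14.4 CPM against 41.3 ± 11.3 CPM in vehicle libraries (SD, n = 4 each), with overlap. The log2 difference was 0.56 ± 0.27 (95% interval -0.01 to 1.14, edgeR adjusted p = 0.668), and it was 0.22 without vehicle 3, vehicle 4 and rapamycin 3. Palbociclib gave 0.13 ± 0.27 and both drugs 0.34 ± 0.27. The palbociclib value was -0.15 without palbociclib 2, -0.02 without vehicle 3 and 0.30 without vehicle 1, and the both-drug value was 0.19 without vehicle 3 and 0.51 without vehicle 1.

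The TET genes, which start the removal of methylation, had no member past an unadjusted p of 0.05 against vehicle. Tet1 and Tet3 varied more among the 16 libraries than every other member, with an SD of 0.83 and 0.62 in log2 CPM. Tet2, at 0.458, did not stand out. Tet2 (ENSMUSG00000040943, chr3:133463679-133545139, minus strand) was at 8.90, 15.4, 12.3 and 15.1 CPM in palbociclib libraries, 13.6, 23.6, 8.22 and 25.7 CPM in rapamycin libraries, 11.2, 13.5, 18.3 and 14.0 CPM with both drugs, and 14.5, 20.2, 9.98 and 16.5 CPM in vehicle libraries. Its log2 differences from vehicle were -0.24 ± 0.35 with palbociclib, 0.22 ± 0.35 with rapamycin and -0.10 ± 0.35 with both drugs. Their size depended on the scale and on single libraries. With limma on log2(TPM + 1) they were -0.64 with palbociclib, -0.19 with rapamycin and -0.38 with both drugs. In the edgeR fit with each library left out in turn, the palbociclib value ran from -0.39 without vehicle 3 to -0.07 without vehicle 2. The rapamycin value ran from -0.02 without rapamycin 4 to 0.45 without rapamycin 3, and the both-drug value from -0.26 without vehicle 3 to 0.07 without vehicle 2.

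Tet3 (ENSMUSG00000034832, chr6:83362373-83459084, minus strand) was at 36.8, 31.1, 17.8 and 27.2 CPM in palbociclib libraries, 26.2, 41.7, 11.8 and 45.6 CPM in rapamycin libraries, 38.7, 28.7, 26.7 and 18.4 CPM with both drugs, and 47.1, 49.3, 14.1 and 33.0 CPM in vehicle libraries. Its log2 differences from vehicle were -0.34 with palbociclib, -0.19 with rapamycin and -0.35 with both drugs, each with an SE of 0.42. Without vehicle 2 they were -0.15, 0.00 and -0.15, and without vehicle 3 they were -0.61, -0.46 and -0.62. Without rapamycin 3 the rapamycin value was 0.08. Vehicle 1 and vehicle 2 were above every other library, and vehicle 3 was below all but rapamycin 3.

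Tet1 (ENSMUSG00000047146, chr10:62804570-62908996, minus strand), the lowest member, was at 10.4, 18.2, 6.36 and 9.79 CPM in palbociclib libraries, 17.7, 13.8, 3.51 and 13.6 CPM in rapamycin libraries, 8.31, 12.7, 5.55 and 6.55 CPM with both drugs, and 9.39, 14.7, 2.07 and 6.72 CPM in vehicle libraries. It had 32 to 264 counts per library and the widest spread of the members, 8.76-fold from the lowest to the highest library. Its differences from vehicle were 0.45, 0.56 and 0.01 on the log2 scale, each with an SE of 0.55. The 95% interval with palbociclib ran from -0.72 to 1.61. Without vehicle 2 the differences were 0.89 with palbociclib, 1.01 with rapamycin and 0.46 with both drugs, and without vehicle 3 they were 0.13, 0.24 and -0.31. Without palbociclib 2 the palbociclib value was 0.11. Replicate 3 was the lowest Tet1 library of every group. With the replicate number added to the fit, the differences from vehicle were 0.62 with palbociclib, 0.66 with rapamycin and 0.23 with both drugs. Their edgeR adjusted p-values were 0.656, 0.774 and 0.886. Whether the replicate number marks a shared origin is not stated in the labels.

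Asxl1 (ENSMUSG00000042548, chr2:153345829-153404007, plus strand) was at 43.8, 31.0, 28.8 and 26.7 CPM in palbociclib libraries, 41.1, 31.7, 44.7 and 43.4 CPM in rapamycin libraries, 35.1, 32.7, 25.5 and 23.0 CPM with both drugs, and 23.7, 29.3, 11.9 and 32.4 CPM in vehicle libraries. Of the rapamycin libraries, 3 lay above all vehicle libraries and rapamycin 2 did not. The rapamycin difference was 0.73 ± 0.28 on the log2 scale, a fold of 1.66 with a 95% interval of 0.14 to 1.32 in log2 (edgeR adjusted p = 0.551). It was 0.50 without vehicle 3 (edgeR adjusted p = 0.512). Palbociclib gave 0.43 ± 0.28 and both drugs 0.26 ± 0.28, and without vehicle 3 these were 0.20 and 0.03. Exons of Asxl1 overlap the opposite-strand gene 2500004C02Rik, which had 28 to 127 counts per library, and the counting is not stated to use strand, so reads of the pair may be mixed.

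**Figure D2:**
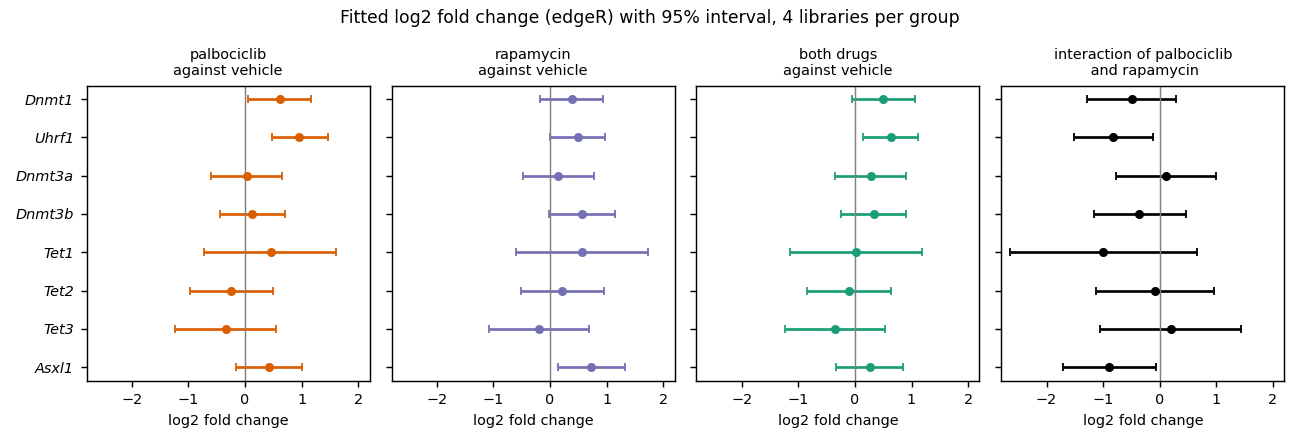
Points are fitted log2 fold changes (horizontal axis) of the 8 members in 3 comparisons with vehicle and in the interaction of the drugs, with 95% intervals. The Uhrf1 interval lies furthest above 0 with palbociclib, at 0.47 to 1.46, and Tet1 has the widest intervals.

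Adding a drug to the other gave no call among the members. Both drugs against palbociclib alone had 0 of 8 members called, against 0.0% of all genes, and 0 at an unadjusted p of 0.05, against 2.85%. Both drugs against rapamycin alone had 0 of 8 called, against 0.0327%, and 0 at an unadjusted p of 0.05, against 9.79%. No member separated without overlap in either comparison, as 3.85% and 8.85% of all genes did, and none other than Uhrf1 with palbociclib did so against vehicle, where 3.07% did with rapamycin and 5.56% with both drugs. For rapamycin averaged over both palbociclib levels edgeR called 0 members, against 0.0% of genes, with 0 members and 4.64% of genes at an unadjusted p under 0.05.

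The interaction asked whether the palbociclib effect differed in the presence of rapamycin. It was -0.82 ± 0.33 on the log2 scale for Uhrf1 (edgeR adjusted p = 0.817) and -0.89 ± 0.39 for Asxl1 (edgeR adjusted p = 0.856), meaning that the difference with both drugs was smaller than the sum of the single-drug differences. These 2 members of 8 compare with 5.67% of all genes at an unadjusted p under 0.05, and edgeR called 0.0% of genes. Without rapamycin 4 the Uhrf1 interaction was -0.57, and its unadjusted p was then above 0.05. The Asxl1 interaction ran from -0.67 without vehicle 3 to -1.06 without vehicle 4, and its unadjusted p was above 0.05 without any one of several libraries, palbociclib 1 and rapamycin 3 among them.

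The genes around the maintenance step were examined from fixed lists. Of 25 S-phase genes, 25 had positive fold changes with palbociclib against vehicle, with a median of 0.52 on the log2 scale against -0.03 over all genes. Of these, 0 were called by edgeR and 11 had an unadjusted p under 0.05, against 9.51% of all genes. This pattern was known from earlier work on the same data and adds no independent support. Their mean was 6.94 to 7.16 log2 CPM in palbociclib libraries and 6.23 to 6.82 in vehicle libraries, without overlap. With rapamycin 13 of 25 were positive, and with both drugs 20 of 25. Pcna, the replication clamp that also binds DNMT1, was at 386 to 521 CPM with palbociclib, 263 to 353 with rapamycin, 342 to 435 with both drugs and 267 to 325 in vehicle libraries. It was the only listed gene edgeR called, for palbociclib averaged over rapamycin levels (log2 difference 0.53 ± 0.10, edgeR adjusted p = 0.039).

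Across 16 libraries Uhrf1 correlated with the S-phase mean at r = 0.607 (permutation p = 0.0125, adjusted over 40 relations 0.0715) and Spearman's rho = 0.715 (permutation p = 0.00262, adjusted 0.0475). Without palbociclib 3 and vehicle 2, the libraries farthest from the median S-phase mean, r was 0.522, and with group means removed it was 0.10. Little of the relation with this mean thus remained among libraries of the same group. Mcm5 and Mcm7, of the S-phase list, had r of 0.852 and 0.723 with Uhrf1 after group means were removed. They were picked for a high r among 11980 genes, and the other S-phase genes were not examined singly. Dnmt1 gave r = 0.417 and rho = 0.353 (permutation p = 0.109 and 0.180, adjusted 0.313 and 0.401), with r = 0.199 without the same libraries.

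**Figure D3:**
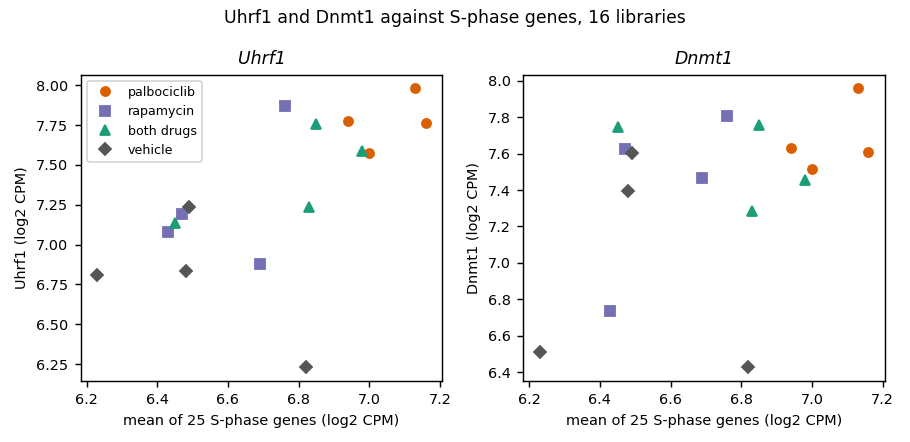
Uhrf1 and Dnmt1 (vertical axes, log2 CPM) are plotted against the mean of 25 S-phase genes (horizontal axis, log2 CPM) in 16 libraries, marked by group. The palbociclib libraries sit at the right, at 6.94 to 7.16, and vehicle 3 is low for both genes despite an S-phase mean of 6.82.

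Among 12 maintenance partners, 10 had positive fold changes with palbociclib, 10 with rapamycin and 10 with both drugs. The medians were 0.38, 0.20 and 0.21 on the log2 scale, and edgeR called 0 of 12 against vehicle in any comparison. Pcna is in this list as well as among the S-phase genes. It had the smallest p of the partners with palbociclib, at 0.68 ± 0.14 (edgeR adjusted p = 0.212). Cdca7, which activates the remodeller HELLS at methylated DNA, had the smallest p with both drugs, at 235 to 267 CPM against 123 to 202 CPM in vehicle libraries (log2 difference 0.57 ± 0.15, edgeR adjusted p = 0.241). Usp7, the deubiquitinase that stabilises DNMT1 and UHRF1, had it with rapamycin, at 0.44 ± 0.21 (edgeR adjusted p = 0.662). Of 9 partners of de novo methylation, 0 were called. Setdb1, a histone H3 lysine 9 methyltransferase, had the smallest p with palbociclib, at 30.9 to 41.4 CPM against 13.4 to 29.6 CPM in vehicle libraries (0.78 ± 0.29, edgeR adjusted p = 0.421), and with rapamycin (0.66 ± 0.29, adjusted p = 0.618). Nsd1, whose H3 lysine 36 mark DNMT3A reads, was at 33.5 to 45.7 CPM with both drugs against 39.8 to 64.9 CPM in vehicle libraries (-0.46 ± 0.20, edgeR adjusted p = 0.435). Cdca7 with both drugs and Setdb1 with palbociclib did not overlap vehicle, as 5.56% and 5.04% of all genes did not. Both genes were picked for the smallest p of their lists.

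Of 8 readers of methylated cytosine, 0 were called against vehicle, and 5 of 8 had negative fold changes with palbociclib and 5 of 8 with both drugs. The smallest p was that of Zbtb4 with palbociclib, at 1.06 to 3.71 CPM against 4.73 to 13.3 CPM in vehicle libraries (-1.65 ± 0.53, edgeR adjusted p = 0.360), and that of Mbd4 with rapamycin (0.35 ± 0.30, adjusted p = 0.892). Of 15 demethylation partners and suppliers of TET cofactors 13 were tested and 0 called. Gadd45g, a stress gene linked to repair-based demethylation, was at 12.1 to 19.3 CPM with rapamycin against 24.5 to 53.8 CPM in vehicle libraries (-1.17 ± 0.30, edgeR adjusted p = 0.399). Neil1, a base-excision glycosylase, had a log2 difference of -0.91 ± 0.43 with both drugs (edgeR adjusted p = 0.479). Zbtb4 with palbociclib and Gadd45g with rapamycin did not overlap vehicle, as 5.04% and 3.07% of all genes did not. Both were picked for the smallest p of their lists.

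Of 14 ASXL, BAP1 and Polycomb partners 13 were tested and 0 called, with Foxk1 of smallest p for palbociclib (-0.94 ± 0.40, edgeR adjusted p = 0.488) and the Polycomb subunit Ring1 for rapamycin (0.38 ± 0.30, adjusted p = 0.873) and both drugs (-0.78 ± 0.30, adjusted p = 0.369). Of 12 genes that supply the methyl donor, 0 were called and 10 had positive fold changes with palbociclib, with a median of 0.13. Adk, the adenosine kinase that clears a product of methylation, had the smallest p there (0.33 ± 0.18, edgeR adjusted p = 0.590), Ahcy, which clears S-adenosylhomocysteine, with rapamycin (-0.38 ± 0.15, adjusted p = 0.570), and the methionine synthase Mtr with both drugs (0.41 ± 0.23, adjusted p = 0.586). Of 17 G2 and mitosis genes, 17 were positive with palbociclib, 15 with rapamycin and 11 with both drugs, and 0 were called. The smallest p in these comparisons was that of Bub1b (1.02 ± 0.26, edgeR adjusted p = 0.269), Top2a (0.78 ± 0.31, adjusted p = 0.572) and Cenpf (-0.90 ± 0.45, adjusted p = 0.508), and among S-phase genes that of Pcna (0.68 ± 0.14, adjusted p = 0.212), Chaf1b (-0.30 ± 0.17, adjusted p = 0.761) and Mcm6 (0.60 ± 0.15, adjusted p = 0.221).

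The deposited counts and TPM together give the mean length of a gene's transcripts, weighted by the TPM assigned to each and not by reads. A short transcript has few reads for its TPM, so a few reads assigned to it lower this mean strongly. A low value therefore does not mean that most reads were assigned to short transcripts. The scale was set on 254 genes with a single annotated transcript. For these the ratio stayed within 0.947 to 1.02 of its median in the central 90% of values. The members fell into 2 sets. The implied length was 91.5% of the longest annotated coding transcript for Uhrf1, 82.1% for Dnmt1, 81.8% for Dnmt3b and 91.3% for Asxl1 (medians over 16 libraries). It was 36.6% for Tet3, 24.0% for Tet2, 22.7% for Dnmt3a and 16.7% for Tet1, whose longest coding transcripts have 10904, 9179, 9685 and 14369 bases. These 4 genes also have annotated transcripts much shorter than these, down to 361 bases for Tet1, and the order of TPM depends on the assignment: per kilobase of the longest coding transcript, Dnmt3b was above Dnmt3a in 16 of 16 libraries, whereas in TPM Dnmt3a was above Dnmt3b in 12 of 16.

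The assignment also differed between libraries. For Tet1 in rapamycin 3 the implied length was 5.54% of the longest transcript, against 13.0% to 20.1% in the other rapamycin libraries. For Dnmt1 it was 62.5% in vehicle 2 and 57.8% in vehicle 3, the libraries of lowest Dnmt1 counts, and 75.2% to 92.5% in the other 14. For Asxl1 it was 60.0% to 66.5% in vehicle 2, 3 and 4 and in rapamycin 4 (61.4%), and 78.5% or more in the others. Which transcripts the cells contained was not tested.

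**Figure D4:**
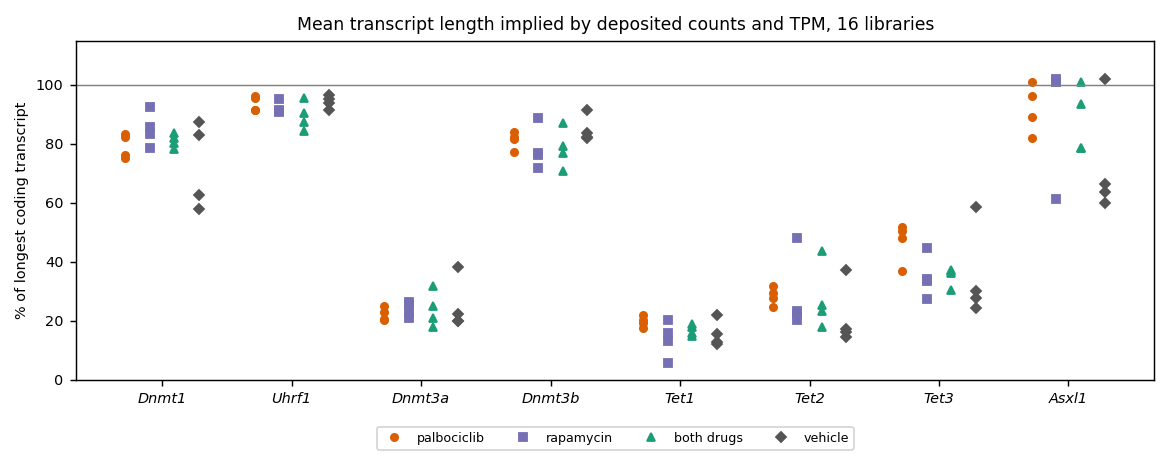
Points give the mean transcript length implied by deposited counts and TPM, as a percentage of the longest annotated coding transcript (vertical axis), for each member in 16 libraries by group. Uhrf1, Dnmt1, Dnmt3b and Asxl1 lie mostly above 60%, and Dnmt3a, Tet1, Tet2 and Tet3 below 60%.

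The balance of long against short genes was set against each member, and no relation passed an adjusted p of 0.05. The balance was taken as the median deviation of 744 genes with transcripts over 7000 bases minus that of 3179 genes under 2500 bases, in log2. It was -0.125 to 0.197 in palbociclib libraries, -0.281 to 0.446 in rapamycin libraries, -0.125 to 0.0929 with both drugs and -0.722 to 0.290 in vehicle libraries, with vehicle 3 and rapamycin 3 lowest. Tet1 gave r = 0.679 and rho = 0.404, Tet3 0.674 and 0.530, Dnmt1 0.656 and 0.358 and Tet2 0.585 and 0.527 over 16 libraries. Permutation p-values of these r were 0.0048, 0.00319, 0.00704 and 0.0163, with adjusted values of 0.0636, 0.0636, 0.0636 and 0.0813 over 40 relations. Permutation p-values of rho were 0.122, 0.0355, 0.173 and 0.0368, with adjusted values of 0.374, 0.21, 0.401 and 0.21. Without vehicle 3 and rapamycin 2, the libraries farthest from the median, r was 0.361, 0.552, 0.510 and 0.436 in the same order of genes. With this balance as a covariate, added after the data were seen, the Uhrf1 difference between palbociclib and vehicle was 0.92 and the Tet1 difference between rapamycin and vehicle was -0.02.

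**Figure D5:**
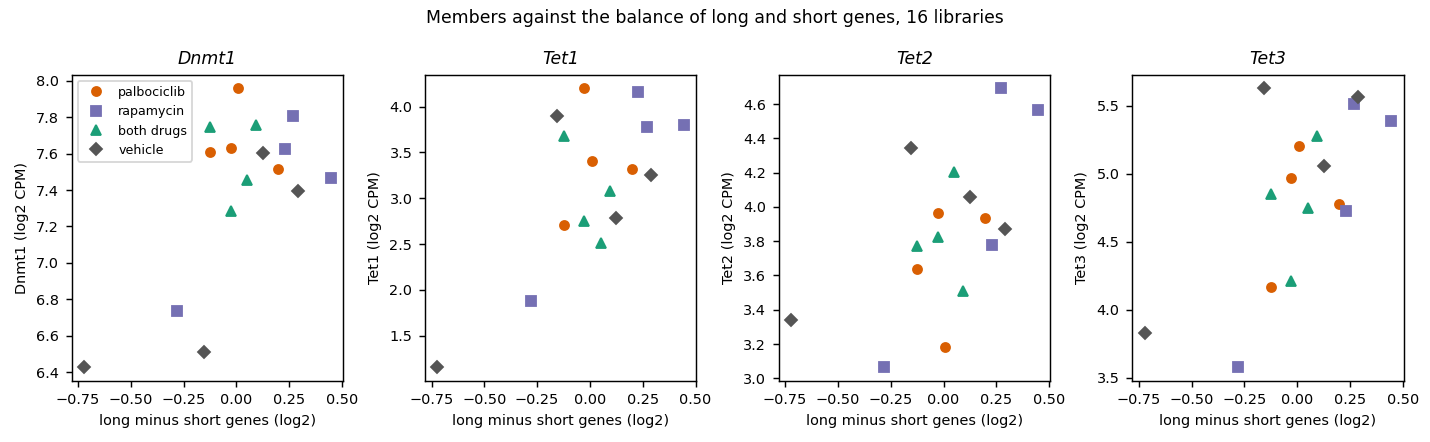
Dnmt1, Tet1, Tet2 and Tet3 (vertical axes, log2 CPM) are plotted against the balance of long and short genes (horizontal axis, log2) in 16 libraries, marked by group. Vehicle 3 at -0.722 and rapamycin 3 at -0.281 are the libraries furthest to the left and are low for all 4 genes.

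Shares of RNA of other blood cells were set against each member, and those of B cells passed an adjusted p of 0.05 with Dnmt3b and Tet1 by Spearman's rho but not by Pearson's r. Each coefficient was adjusted on its own, so the use of both was not allowed for. The log2 share of B cell markers gave r = -0.718 and rho = -0.768 with Dnmt3b (permutation p = 0.00192 and 0.00101, adjusted 0.0636 and 0.0404) and r = -0.626 and rho = -0.694 with Tet1 (permutation p = 0.00903 and 0.00356, adjusted 0.0636 and 0.0475). Without both-drug library 2 and rapamycin 1, farthest from the median share, r was -0.667 and -0.574, and with group means removed it was -0.594 and -0.671. Dnmt3b also gave r = -0.630 and rho = -0.568 with the late neutrophil share (permutation p = 0.00954 and 0.0243, adjusted 0.0636 and 0.21), and r = -0.510 without the same libraries. The B cell shares of rapamycin libraries, 0.010% to 0.154%, lay below all vehicle libraries, at 0.165% or more. With both shares as covariates the rapamycin difference from vehicle was 0.48 for Dnmt3b and -0.51 for Tet1.

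All 28 pairs of members had a positive correlation in log2 CPM over the 16 libraries, from 0.0177 to 0.770 with a median of 0.470, and 27 of 28 stayed positive with group means removed. All members share the libraries and the scaling factors, so these values are a description. Dnmt1 and Uhrf1 were the closest pair, at 0.770, followed by Tet1 and Tet3 at 0.733. Among 11980 genes compared, those most like Uhrf1 were the helicase subunits Mcm5 (r = 0.878) and Mcm7 (0.872) and the ubiquitin-conjugating enzyme gene Ube2l3 (0.857), and those most like Dnmt1 were Tbl2 (0.921), Nup205 (0.901) and Sf3b3 (0.892). Dnmt3a was most like Abcb8 (0.917), Adgra3 (0.877) and Sec31a (0.871). Dnmt3b was most like Fkbp9 (0.930), Fam131a (0.895) and the stem cell receptor gene Kit (0.863). Tet1 was most like Ptpn14 (0.941), Prickle1 (0.907) and Evc (0.894), Tet2 like Cnot6 (0.846), Prkg1 (0.816) and Ttc32 (0.810), and Tet3 like Rgp1 (0.936), Fam193a (0.920) and CT010467.1 (0.899). Asxl1 was most like Zbtb40 (0.910), Sp4 (0.895) and the Polycomb gene Scmh1 (0.884).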

How the data were processed

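RNA of sorted HSCs was measured in 16 libraries of 4 groups, taken from the sample titles. The authors deposited expected counts per gene, which are whole as deposited, and log2(TPM + 1) values with a pseudocount of 1. Per the submitters' processing notes, the tools were STAR 2.5.3a, RSEM 1.3.0 and SAMtools 1.3, with build mm10. No role, setting or annotation release is given in the sources used here. RSEM-type estimates share reads between transcripts and near-identical genes, and strand use is not stated. Symbols and coordinates came from GENCODE M21, which is on GRCm38 (mm10) and named 50376 IDs.

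The test was edgeR 4.0.16 run in R 4.3.3. The filter (minimum count 10, minimum total 15) kept 15308 genes holding 99.5% to 99.9% of counts. TMM factors ran from 0.889 to 1.14. A mean per group was fitted over 16 libraries (12 residual degrees of freedom, no covariates), with the quasi-likelihood F test and Benjamini-Hochberg adjustment within each comparison at 0.05. Log2 CPM used a prior count of 2. Alternatives used DESeq2 1.42.0, limma 3.58.1 (voom, and log2 TPM), other scaling and filters, a replicate block, covariates and libraries left out. Within groups, 24 library pairs correlated at 0.843 to 0.958, and every pair differed by a chi-square of 26.1 or more per degree of freedom, so no library repeated another. The edgeR fit was also run on counts simulated from its own estimates of spread, with known changes put in. These simulated libraries had no effects shared across genes, so the run cannot show how the fit handles such effects here. Relations used permutation tests with 100000 resamples, in which libraries were shuffled across the groups. The p-values were adjusted over 40 relations, separately for Pearson's r and Spearman's rho. The use of both coefficients was not allowed for.

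The members and lists were chosen with earlier results of these data known. Named genes are all members, the gene of smallest p of each list against vehicle, and the 3 genes of highest r with each member. The latter were taken among genes averaging 1 log2 CPM or more. Names of Gm and a digit, names ending in Rik and genes with only an ID were left out, but the clone-named CT010467.1 was not. Some genes that this rule takes are not reported here. Other genes named with the S-phase comparison or as markers were named from those lists. Counting intervals were not computed, since spread between libraries is the error used.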

Additional observations from a re-analysis of the deposited data

Results flagged for a closer look

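In 32 sets of 4 libraries (8 members in 4 groups), the gap between an extreme library and its nearest neighbour was set against the range of the group, with a critical value of 0.829 for 4 libraries. About 1 in 20 such sets passes it by chance. Dnmt3a in vehicle 3 was far below the other vehicle libraries, with a gap over range of 0.869 on the log2 CPM scale, at 20.4 CPM against 51.8 to 59.6 CPM in the others. Tet1 in rapamycin 3 was far below the other rapamycin libraries, with a gap over range of 0.834, at 3.51 CPM against 13.6 to 17.7 CPM. In the deposited TPM this library was not set apart for Tet1, at 5.81 TPM against 5.99 to 11.1 TPM. Vehicle 3 and rapamycin 3 are the libraries with the lowest balance of long against short genes, at -0.722 and -0.281. The part of this balance in the flagged values was not tested.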

How the results depend on the processing

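With 27 alternatives, the number of members called stayed 0 in each comparison except with DESeq2, which called 1 member, Uhrf1, for palbociclib against vehicle (log2 0.96) and 1, again Uhrf1, for palbociclib averaged over rapamycin levels (log2 0.55), and the cause was not tested. Over all genes DESeq2 called 112 for palbociclib against vehicle, where edgeR called 0, and 475 in the averaged one, where edgeR called 42. With each library left out in turn, 0 members were called in any comparison. Of the 64 fold changes, 23 exceeded 1 SE, and 3 of their 612 alternative values changed sign. These were Tet1 for rapamycin against vehicle, -0.51 with late neutrophil and B cell shares as covariates and -0.02 with the length balance as a covariate, added after the data were seen, and Tet1 for both drugs against rapamycin, 0.02 with the blood cell shares. Of all 1704 values, 110 changed sign. The Uhrf1 palbociclib difference ran from 0.82 to 1.14. With the replicate block, 0 members were called in each comparison and Uhrf1 gave 0.99 with palbociclib (edgeR adjusted p = 0.263). Pairing by number was not established, since 7 of 24 same-number pairs had correlations over 0.1 in their deviations (range -0.21 to 0.348, median 0.0422, against -0.0195 for other pairs). As a hint from the data, each library was set against those of the other groups only, of which 3 share its number. The closest had the same number for 8 of 16 libraries, more often than random numbering would give on average. Whether this marks pairs was not tested. Members with few counts, such as Tet1 with 32 in vehicle 3, are the least precise.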
